A study of Homo sapiens with 8 samples.

Results

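The report concerns 9 genes used as markers of neurons and neuroendocrine cells: INA, NRN1, NEFL, NEFM, ENO2, UCHL1, SYP, CHGA and NCAM1. They were named as a list with earlier results of these data in view. Each was read from the probe set whose single symbol in the array annotation is that gene, chosen by its mean log2 value over the 8 arrays where a gene has several. Each of the 9 had 1 probe set, so brightness decided nothing in this choice, which used no threshold. All 9 were found among 18404 genes with a single symbol. Why each gene was put on the list is not recorded. INA and NRN1 have the 3rd and 10th highest difference between the lines of all 18404 genes, so differences between the lines are given as a description, with no p-value for any of the 9 genes.

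RNA was measured on 8 Affymetrix arrays from NCI-H1299 and NCI-H2009 (H1299 and H2009 below), which the series title calls lung adenocarcinoma cell lines. Each line was infected with lentivirus carrying 1 of 4 short hairpin RNAs, selected with puromycin, and collected at day 4. The groups were H1299 with hairpins against PTK7 (PTK7-1 and PTK7-2), H1299 with control hairpins (GFP and luciferase, LUC), H2009 with the PTK7 hairpins and H2009 with the control hairpins, with 1 array per hairpin and 2 arrays per group. All 8 cultures were therefore infected and selected. Within a group the hairpins differ, and the labels do not speak of repeated cultures. P-values of the knockdown and line comparisons therefore rest on the spread between arrays of different hairpins, except where a hairpin block is named. Those between hairpins, and those with the block, rest on how far hairpin differences vary between the lines. Part of either spread may be technical, and neither measures the spread of repeated cultures.

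INA, NEFL and NEFM encode subunits of neuronal intermediate filaments, the proteins that fill the axon and set its calibre. NRN1 encodes neuritin, a lipid-anchored surface protein that promotes neurite growth. ENO2 (neuron-specific enolase, a glycolytic enzyme) and UCHL1 (PGP 9.5, a ubiquitin hydrolase) are enzymes abundant in neurons. SYP (synaptophysin, a membrane protein of synaptic vesicles), CHGA (chromogranin A, a core protein of secretory granules) and NCAM1 (CD56, a neural cell adhesion molecule) are the classical markers by which pathologists recognise neuroendocrine lung tumours.

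The values are log2 expression values from RMA, a method that corrects background, brings the arrays to a common scale and combines each set's probes into 1 value. Small differences of dim probe sets are compressed on this scale, levels of different probe sets cannot be set against each other, and the number of arrays limits the precision. The median of the 18404 genes lay between 6.27 and 6.33 on every array. PTK7, the targeted gene, stood at 5.63 with PTK7-1 and 5.53 with PTK7-2 in H1299, against 5.73 with GFP and 6.03 with LUC. In H2009 it stood at 5.63 with PTK7-1 and 5.94 with PTK7-2, against 6.64 with GFP and 6.86 with LUC. Both PTK7 arrays lay below both control arrays in each line, but the averaged difference of -0.63 ± 0.12 (standard error of the fit) did not pass the threshold (limma adjusted p = 0.190). In H1299 the difference was -0.30 ± 0.17 (limma adjusted p = 0.804), and in H2009 it was -0.96 ± 0.17 (adjusted p = 0.222 in limma). A lowering of PTK7 RNA is therefore only weakly shown in H1299, where PTK7-1 lay close below GFP. The marker genes differed between the lines. The mean log2 value of 7 lung markers ran from 4.64 to 4.85 over the H1299 arrays, against 6.09 to 6.56 over the H2009 arrays. Of these markers, the surfactant genes SFTPB and SFTPC, and also SFTA2, overlapped between the lines. The mean of 7 epithelial markers ran from 5.82 to 6.36 in H1299, against 10.8 to 11.0 in H2009. EPCAM, an epithelial adhesion molecule, ran from 3.32 to 3.58 in H1299, against 11.2 to 11.3 in H2009, while the keratin KRT18 overlapped, with 10.6 to 11.6 in H1299 and 11.3 to 11.4 in H2009. The mean of 5 mesenchymal markers ran from 7.86 to 8.11 in H1299, against 7.28 to 7.82 in H2009, and its members were mixed. VIM, CDH2 and ZEB1 were higher on every H1299 array, and FN1 and SPARC were lower on every H1299 array. The part of this contrast in the results below was not tested, and fewer cells with a transcript and less of it per cell cannot be told apart in such bulk RNA.

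Of the 9 genes, INA and NRN1 had the largest differences between the lines. Both were bright in H1299 and near the low end of the scale in H2009 with every hairpin, whereas CHGA, NCAM1 and NEFM were dim in both lines. All H1299 arrays lay above all H2009 arrays for 6 of the 9 genes (INA, NRN1, NEFL, ENO2, UCHL1 and SYP), and all H1299 arrays lay below for 0. Among all genes, 19.0% had every H1299 array above every H2009 array and 16.2% had every one below. By limma at an adjusted p under 0.05, 36.2% of all genes differed between the lines averaged over the hairpins and 24.8% under the control hairpins. The list was proposed with earlier results of these data in view, and which results is not recorded, so nothing is read from its count. With quantile normalization the count was 5 of 9, without ENO2.

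INA encodes alpha-internexin and lies at chr10:103277138-103290346 (GRCh38.p14). Its log2 value in H1299 was 11.2 with PTK7-1, 10.6 with PTK7-2, 10.9 with GFP and 10.5 with LUC. In H2009 it was 4.04 with PTK7-1, 3.69 with PTK7-2, 4.12 with GFP and 3.91 with LUC. The lines did not come near each other. The line difference was 6.85 ± 0.17 averaged over the hairpins, and it ran from 6.60 with LUC to 7.12 with PTK7-1. NRN1 (chr6:5997999-6007518) stood in H1299 at 9.18 with PTK7-1, 9.0 with PTK7-2, 9.39 with GFP and 9.17 with LUC, and in H2009 at 3.71, 3.85, 3.89 and 3.69 in the same order of hairpins. Its difference was 5.4 ± 0.10, with no overlap. No fold is given for INA or NRN1, because nothing in the deposited values shows whether their H2009 signal was above background. The 4 hairpins spanned 0.39 in H1299 and 0.21 in H2009 for NRN1, and 0.64 and 0.43 for INA, far less than the gap between the lines.

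**Figure D1:**
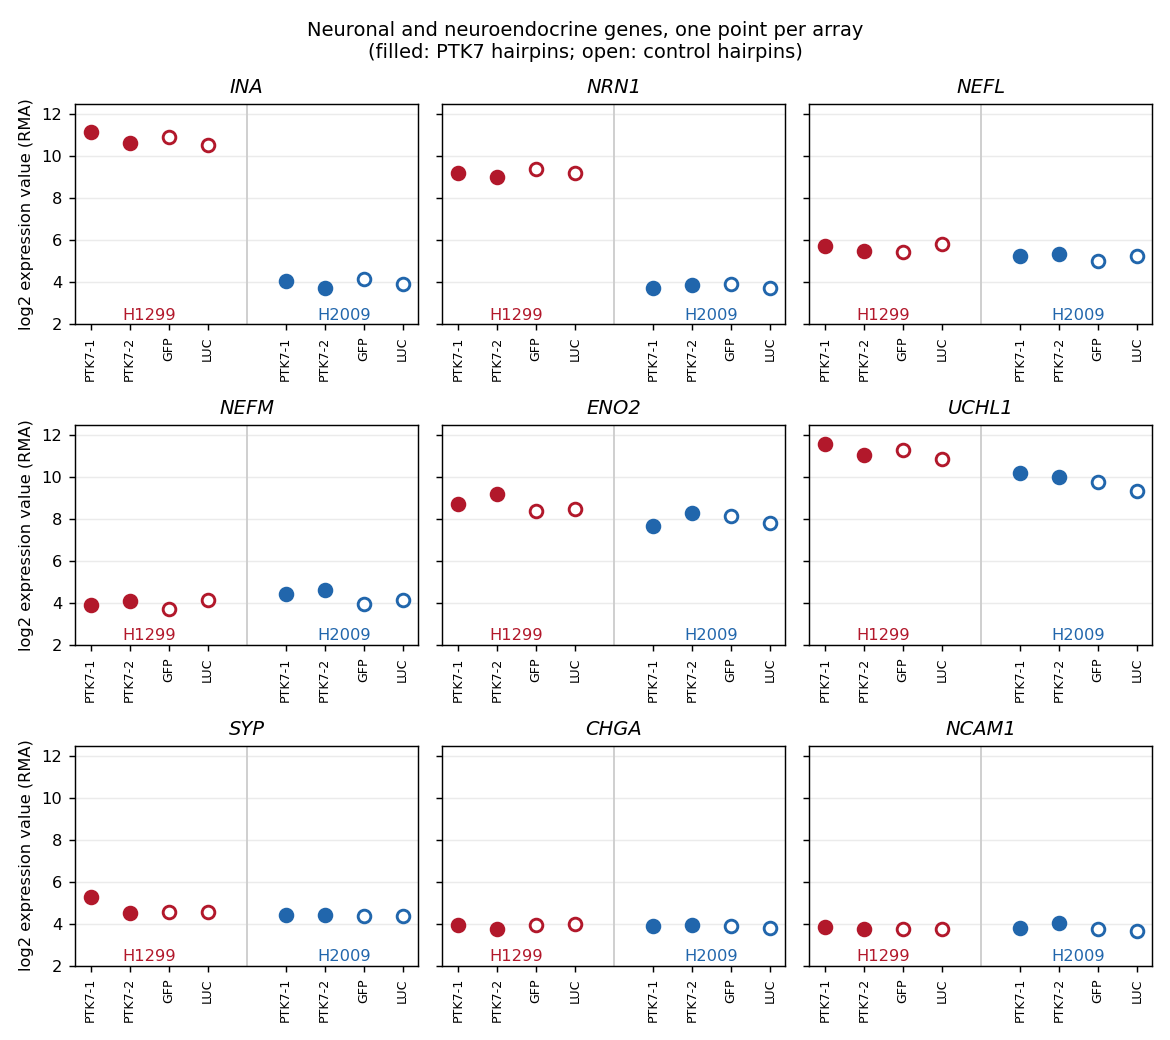
Log2 expression value (vertical axis) of each of the 9 genes on the 8 arrays, with the H1299 arrays on the left of each panel and the H2009 arrays on the right; filled points are PTK7 hairpins and open points control hairpins. INA and NRN1 stand at 9.0 or higher in H1299 and at 4.12 or lower in H2009, while CHGA and NCAM1 stay between 3.66 and 4.01 on every array.

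UCHL1 (chr4:41256928-41268455) was bright in both lines and brighter in H1299. Its value in H1299 was 11.6 with PTK7-1, 11.0 with PTK7-2, 11.3 with GFP and 10.9 with LUC, and in H2009 it was 10.2, 10.0, 9.76 and 9.35 in the same order. The lowest H1299 array lay above the highest H2009 array, and the line difference was 1.36 ± 0.17 (2.56-fold). ENO2 (chr12:6914580-6923697) was also present in both lines. It stood in H1299 at 8.71 with PTK7-1, 9.17 with PTK7-2, 8.37 with GFP and 8.45 with LUC, and in H2009 at 7.68, 8.29, 8.13 and 7.82. The gap between the lowest H1299 array and the highest H2009 array was small, and the averaged difference was 0.69 ± 0.17 (1.62-fold). ENO1, the ubiquitous relative of ENO2, was picked out after its values were seen and overlapped between the lines, with 12.06 to 12.21 in H1299 and 12.02 to 12.22 in H2009.

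The other 5 genes were dim, and all 5 were among the dimmest 40% of genes by mean over the arrays. The remaining filament subunits did not share the INA pattern. NEFL, the light neurofilament, stood in H1299 at 5.69 with PTK7-1, 5.48 with PTK7-2, 5.43 with GFP and 5.78 with LUC, and in H2009 at 5.24, 5.34, 5.01 and 5.24. Its lines were narrowly separated, by 0.39 ± 0.12. NEFM, the medium neurofilament, went the other way by -0.33 ± 0.13, with 3.89, 4.09, 3.69 and 4.12 in H1299, against 4.40, 4.59, 3.96 and 4.14 in H2009. Its lines overlapped. CHGA (chr14:92922664-92935285) lay between 3.75 and 3.97 in H1299 and between 3.82 and 3.94 in H2009, with a difference of 0.01 ± 0.08. NCAM1 (chr11:112961420-113278436) lay between 3.74 and 3.84 in H1299 and between 3.66 and 4.01 in H2009, with a difference of -0.04 ± 0.09. Neither separated the lines. SYP (chrX:49187815-49200193) stood at 4.50, 4.56 and 4.57 on 3 of the H1299 arrays and between 4.36 and 4.43 on the 4 H2009 arrays. The remaining H1299 array, PTK7-1, stood apart at 5.29. The SYP line difference of 0.34 ± 0.17 was 0.14 without that array, a change of over 1.5 times.

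The windows before the starts of the 3 genes with the largest line differences are shown because these genes share a direction between the lines. Each is the 250 bases before the gene start used in RefSeq's promoter table (GRCh38.p14), read on the gene's strand, with capitals for the motifs found. The motifs searched on both strands were CAGCTG and CAGATG, E-boxes of the kind that neural basic helix-loop-helix factors bind, TATAAA, and the core of RE1, the element bound by REST, a repressor of neuronal genes. No motif matches overlapped.
INA, chr10:103276888-103277137, plus strand: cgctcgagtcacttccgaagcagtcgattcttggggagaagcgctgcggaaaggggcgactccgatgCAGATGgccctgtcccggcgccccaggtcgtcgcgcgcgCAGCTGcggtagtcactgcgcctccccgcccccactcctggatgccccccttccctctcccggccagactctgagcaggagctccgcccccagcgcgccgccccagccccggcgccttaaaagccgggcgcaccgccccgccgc
NRN1, chr6:6004026-6004275, minus strand: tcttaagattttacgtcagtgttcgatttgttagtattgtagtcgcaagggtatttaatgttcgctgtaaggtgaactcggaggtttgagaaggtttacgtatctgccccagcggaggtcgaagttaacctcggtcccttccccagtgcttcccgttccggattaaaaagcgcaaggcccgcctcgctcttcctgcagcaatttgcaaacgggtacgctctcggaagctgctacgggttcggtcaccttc
UCHL1, chr4:41256678-41256927, plus strand: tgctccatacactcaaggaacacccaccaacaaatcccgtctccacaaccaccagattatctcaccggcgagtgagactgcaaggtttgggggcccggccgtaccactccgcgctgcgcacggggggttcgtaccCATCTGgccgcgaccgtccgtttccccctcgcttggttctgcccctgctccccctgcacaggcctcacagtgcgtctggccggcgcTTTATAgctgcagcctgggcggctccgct
The INA window held 1 CAGCTG and 1 CAGATG, first met 144 and 183 bases before the start. The UCHL1 window held 1 CAGATG, on the opposite strand, and 1 TATAAA, also on the opposite strand, 29 bases before the start. The NRN1 window held none of the 4. Of 35116 windows of the same length, 14% held CAGCTG, 12.2% CAGATG, 10.7% TATAAA and 0.0513% the RE1 core. Of the 9 genes 6 had a window in the table, and the RE1 core was in 0 of those 6. The NRN1 window lies inside the gene's annotated span, since the table places its start there. The windows of INA, NRN1 and UCHL1 held 30, 19 and 20 CG dinucleotides, against a median of 11 over all windows.

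Related lists showed no common shift toward H1299. Of 86 genes on 9 such lists, 80 were measured as single-symbol genes, and 16 of these (20%) had all H1299 arrays above all H2009 arrays and 21 (26.2%) all below, beside 19.0% and 16.2% of all genes. Their median line difference was -0.02, against 0.39 for the 9 genes and 0.03 for all genes. The other 6 were not analysed here.

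Granins and other granule genes had the highest list median, with 3 of 7 genes above and 0 below (median 0.36). VGF, the precursor of neuropeptides released from granules, ran from 6.48 to 8.03 in H1299, against 5.44 to 5.96 in H2009. SCG2 and CHGB, granins like CHGA, had line differences of 0.90 ± 0.11 and 0.86 ± 0.15, both at dim levels. Among 13 synaptic vesicle genes, 2 were above and 3 below (median -0.06). SYN2, a synapsin, stood higher in H1299 by 1.36 ± 0.15, whereas SYT1, the calcium sensor of vesicle release, and RAB3A, a vesicle GTPase, had differences of -2.23 ± 0.18 and -1.17 ± 0.09. Of 7 neuroendocrine transcription factors, 2 were above and 3 below (median 0.02). SOX2 had the widest gap, 4.71 to 5.12 in H1299 against 6.09 to 8.92 in H2009, beside NKX2-2 at 0.86 ± 0.11 and FOXA2 at -0.64 ± 0.15. The wide SOX2 range in H2009 followed the hairpins, with 6.81 for PTK7-1 and 6.09 for PTK7-2, against 7.96 for GFP and 8.92 for LUC.

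Of 10 other intermediate filament genes, 1 was above and 5 below (median -0.38). The keratins KRT19 and KRT7 had differences of -5.91 ± 0.11 and -5.52 ± 0.14, and VIM had 2.27 ± 0.16. Among 10 neural adhesion and polysialylation genes, 2 were above and 3 below (median 0.05), with the contactin CNTN1 at -2.87 ± 0.35, N-cadherin, CDH2, at 2.72 ± 0.15 and the polysialyltransferase ST8SIA4 at -0.91 ± 0.26. Of 9 neuronal cytoskeleton and RNA-binding genes, 1 was above and 2 below (median -0.12), with the RNA-binding ELAVL2 at -1.61 ± 0.27, MAP2 at -0.83 ± 0.17 and MAPT, or tau, at 0.41 ± 0.10. The relatives of ENO2, UCHL1 and NRN1 gave 0 above and 1 below of 5 (median -0.02), with UCHL5 at -1.58 ± 0.10, ENO3 at 0.38 ± 0.14 and UCHL3 at -0.21 ± 0.14. The Notch pathway, which restrains neural and neuroendocrine fates, gave 3 above and 3 below of 9 (median -0.27), with the ligand JAG1 at -2.88 ± 0.18, NOTCH3 at -1.44 ± 0.08 and DLL3 at 0.97 ± 0.09. REST and its corepressors gave 2 above and 1 below of 10 (median 0.32), with HDAC1 at -0.73 ± 0.27, RCOR1 at 0.73 ± 0.24 and RCOR3 at 0.54 ± 0.14.

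**Figure D2:**
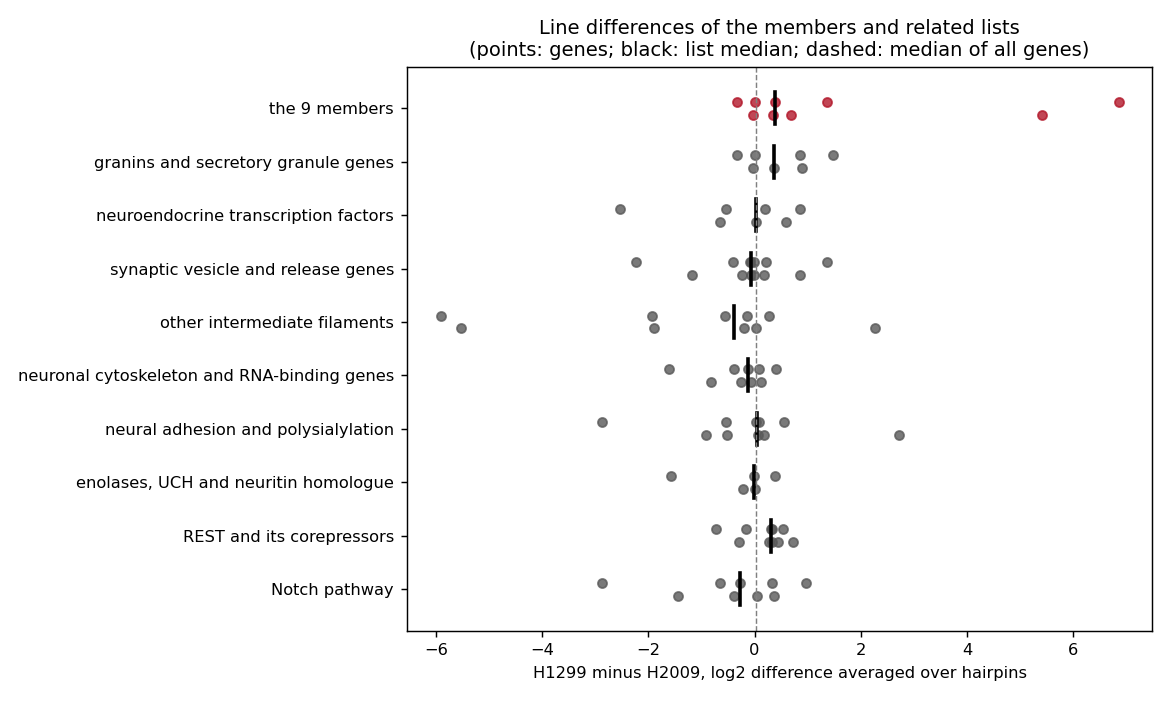
H1299 minus H2009 log2 difference averaged over the 4 hairpins (horizontal axis) for each gene of the 9 and of the related lists (points), with the median of each list in black and that of all genes as a dashed line. INA and NRN1, at 6.85 and 5.4, stand to the right of every gene of the related lists, whose medians lie between -0.38 and 0.36.

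The next comparison asks whether these genes differ between PTK7 and control hairpins, called knockdown here although PTK7 itself passed in neither line. Averaged over the lines, 0 of the 9 passed the threshold of a limma adjusted p under 0.05, beside 0% of all genes (1819 of 18404 had an unadjusted p under 0.05). The 9 differences had a median of 0.12, against 0.02 for all genes, and 7 of the 9 were above 0. The share of all genes above 0 was not counted, so nothing is read from that number. UCHL1 had the largest, at 0.38 ± 0.17 (95% confidence interval -0.01 to 0.78, adjusted p = 0.514 in limma). ENO2 had 0.27 ± 0.17 (-0.13 to 0.68, adjusted p = 0.663 in limma) and NEFM 0.26 ± 0.13 (-0.03 to 0.56, adjusted p = 0.560 in limma). INA and NRN1, the genes with the largest line differences, had knockdown differences of 0.01 ± 0.17 and -0.10 ± 0.10. With the hairpin as a block shared by the lines, 149 of all genes passed and still 0 of the 9, with a lowest adjusted p of 0.136, for UCHL1. The block takes out differences between hairpins of a target that the lines share, so its p-values speak only of the hairpins used.

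In H1299, 0 of the 9 passed, beside 0.00543% of all genes. ENO2 was the only one of the 9 with both PTK7 arrays above both control arrays, and CHGA the only one with both below. Such separation upward held for 15.6% of all genes and downward for 16.1%. The group means of ENO2 were 8.94 ± 0.33 with PTK7 hairpins and 8.41 ± 0.06 with control hairpins (SD, n = 2 each), a difference of 0.54 ± 0.24 (limma adjusted p = 0.710). SYP averaged 4.90 ± 0.56 with PTK7 hairpins and 4.57 ± 0.01 with control hairpins (SD, n = 2 each). This SYP difference of 0.33 rested on the PTK7-1 array, and without it the difference was -0.07. Without GFP, LUC or PTK7-2 in H1299, 4, 3 and 5 of the 9 had the remaining PTK7 arrays above the remaining controls. Separation is easier with fewer arrays, and the share of all genes was not counted for these sets, so nothing is read from this rise.

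In H2009, 0 of the 9 passed, beside 0% of all genes (1468 had an unadjusted p under 0.05). NEFM, UCHL1, SYP, CHGA and NCAM1, 5 of the 9, had both PTK7 arrays above both control arrays, and 0 had both below. Upward separation held for 26.0% and downward for 18.9% of all genes. UCHL1 averaged 10.1 ± 0.12 with PTK7 hairpins and 9.56 ± 0.29 with control hairpins (SD, n = 2 each), a difference of 0.54 ± 0.24 (limma adjusted p = 0.645). NEFM averaged 4.50 ± 0.13 with PTK7 hairpins and 4.05 ± 0.13 with control hairpins (SD, n = 2 each), a difference of 0.44 ± 0.18 (adjusted p = 0.609 in limma). The other 3 separations were small, at 0.20 for NCAM1, 0.07 for SYP and 0.06 for CHGA, and with quantile normalization those of SYP and CHGA were gone, which left 3 of 9. With the dimmest 40% of genes left out, 4 of the 9 genes were tested and only UCHL1 was separated. The shares of all genes were not counted under these settings.

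**Figure D3:**
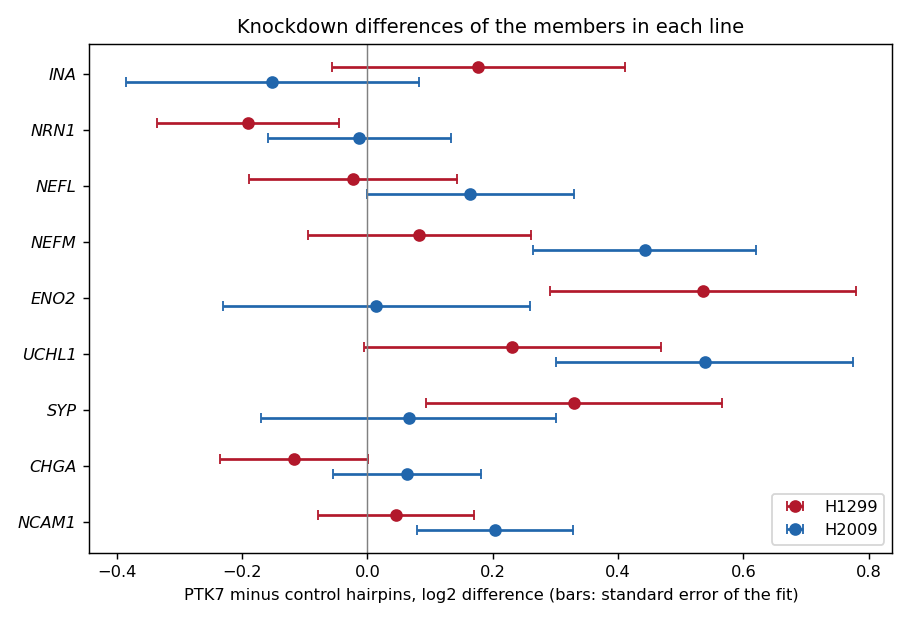
PTK7 minus control log2 difference (horizontal axis) of each of the 9 genes in H1299 and in H2009, with bars for the standard error of the fit over all 8 arrays. ENO2 at 0.54 in H1299 and UCHL1 at 0.54 in H2009 are the farthest to the right, and 0 of the 9 passed the threshold in either line.

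The lines were also compared for their knockdown differences directly, and 0 of the 9 passed, beside 0% of all genes (951 had an unadjusted p under 0.05). ENO2 had the largest gap between the lines, 0.52 ± 0.35 (95% confidence interval -0.29 to 1.33, limma adjusted p = 0.922). Among the 80 related genes limma gave 0 calls in either direction under PTK7 hairpins in either line or averaged. SOX2 differed by -1.99 ± 0.35 in H2009 (limma adjusted p = 0.222) and by -0.14 ± 0.35 in H1299 (adjusted p = 0.994 in limma). Its averaged difference of -1.06 ± 0.25 did not pass (limma adjusted p = 0.238, and 0.0648 with the hairpin block). Both its PTK7 arrays lay below both control arrays in H2009 only, where 18.9% of all genes had that order. REST, named after its values were seen, had both PTK7 arrays below both control arrays in each line. It stood in H1299 at 7.99 with PTK7-1 and 8.17 with PTK7-2, against 8.49 with GFP and 8.60 with LUC. In H2009 it stood at 7.41 with PTK7-1 and 7.73 with PTK7-2, against 8.07 with GFP and 8.24 with LUC. The averaged REST difference of -0.52 ± 0.11 did not pass (limma adjusted p = 0.198, and 0.0621 with the hairpin block). Of the related genes, CPE and SIN3A were also below in both lines, and SCG2, RAB3A, CDH2, NFASC, CNTN1 and L1CAM were above in both. The share of all genes separated alike in both lines was not counted, so nothing is read from REST alone.

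The hairpins were then compared with each other over both lines. Between PTK7-1 and PTK7-2, 0 of the 9 passed, beside 3.73% of all genes. UCHL1, INA and SYP were higher with PTK7-1 than with PTK7-2 in both lines, an order that 25.0% of all genes shared, and ENO2 and NEFM were lower in both, as were 30.3% of all genes. The SYP gap in H2009 was 0.01. ENO2 differed by -0.46 in H1299 and -0.61 in H2009, a fitted difference of -0.53 ± 0.20 (limma adjusted p = 0.199). INA differed by 0.55 in H1299 and 0.35 in H2009, or 0.45 ± 0.16 (limma adjusted p = 0.176), and UCHL1 by 0.53 and 0.16, or 0.35 ± 0.16 (adjusted p = 0.317 in limma).

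The control hairpins give a background of the same kind. Between GFP and LUC, 0 of the 9 passed, beside 0% of all genes (672 had an unadjusted p under 0.05). UCHL1 stood higher with GFP than with LUC by 0.41 in H1299 and 0.41 in H2009, a fitted difference of 0.41 ± 0.16 (limma adjusted p = 1.00). This control difference is as large as the averaged knockdown difference of UCHL1. In both lines UCHL1 was highest with PTK7-1 and lowest with LUC. INA and NRN1 were also higher with GFP than with LUC in both lines, at 0.30 ± 0.16 and 0.21 ± 0.14, as was NCAM1 at 0.06 ± 0.14, an order shared by 26.4% of all genes. NEFL, NEFM and SYP were lower in both lines, at -0.29 ± 0.15, -0.31 ± 0.16 and -0.01 ± 0.20, as were 30.3% of all genes.

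**Figure D4:**
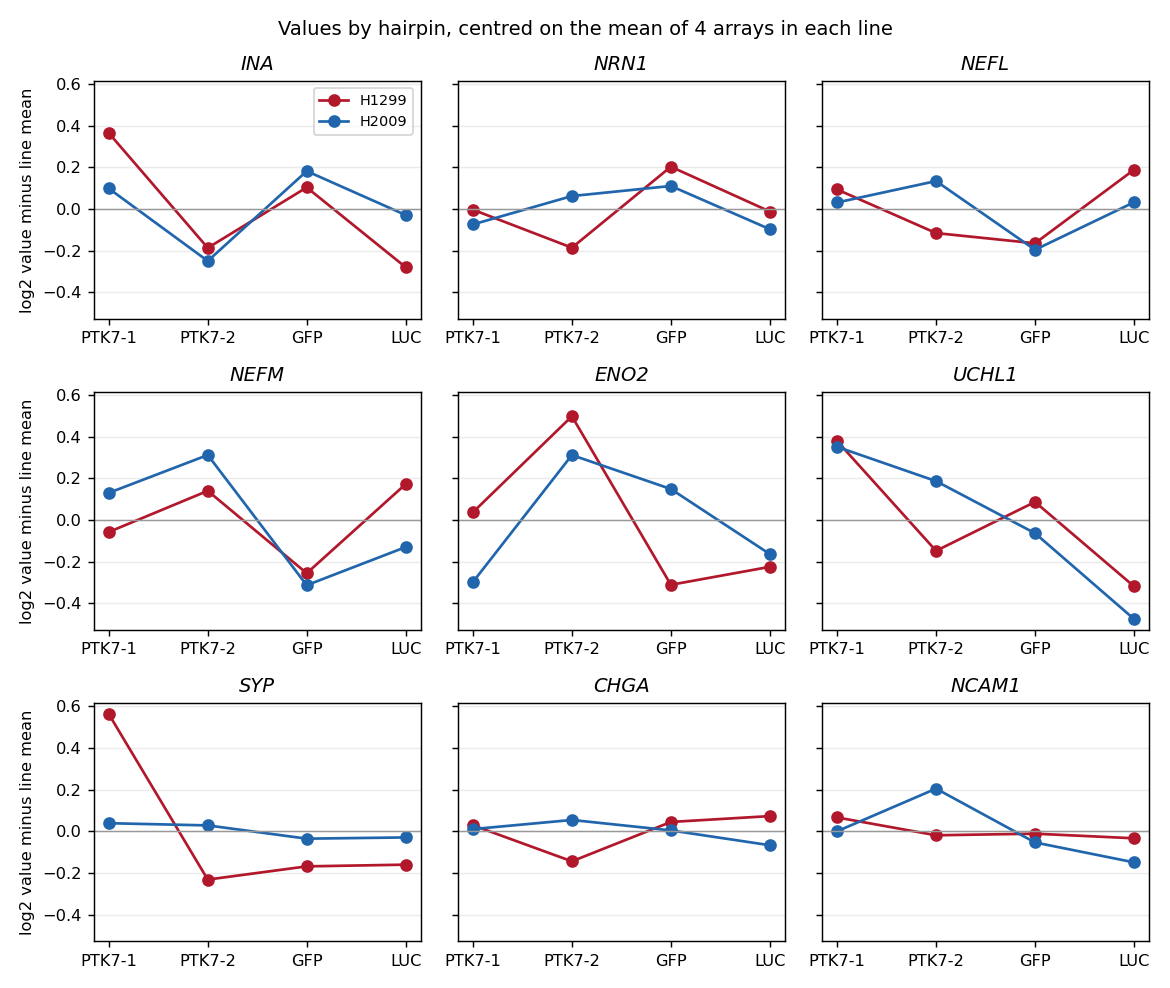
Log2 value minus the mean of the 4 arrays of the line (vertical axis) for each hairpin (horizontal axis), with H1299 and H2009 as separate lines in each panel. UCHL1 is highest with PTK7-1 and lowest with LUC in both lines, ENO2 is highest with PTK7-2 in both, and the SYP point of H1299 with PTK7-1 stands alone.

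Of the 80 related genes, 3 passed the threshold between the PTK7 hairpins, 2 higher and 1 lower with PTK7-1, a share close to the 3.73% of all genes. NEFH, the heavy neurofilament, stood with PTK7-1 at 5.57 in H1299 and 7.90 in H2009, and with PTK7-2 at 4.63 in H1299 and 5.79 in H2009. The controls were close to PTK7-1, with GFP at 5.68 in H1299 and 7.84 in H2009, and LUC at 5.49 in H1299 and 7.53 in H2009. NEFH was therefore lowest with PTK7-2 in both lines, and PTK7-1 exceeded PTK7-2 by 1.53 ± 0.26 (limma adjusted p = 0.0266). HDAC1, a deacetylase of the REST complex, differed in the same direction by 0.90 ± 0.19 (limma adjusted p = 0.0493), and EHMT2, a histone methyltransferase, in the other by -0.81 ± 0.17 (adjusted p = 0.0473 in limma). The NEFH call was lost without the PTK7-1 array of either line (1.799 without that of H1299 and 1.26 without that of H2009) and without the GFP array of either line (adjusted p = 0.0517 in limma). The HDAC1 call was lost with any array left out other than PTK7-2 in H2009, and was 0.57 without PTK7-2 in H1299. The EHMT2 call was lost with any array left out, with differences from -0.96 to -0.66.

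UCHL1, ENO2 and SYP varied most within a line, by up to 0.83, 0.81 and 0.79. The genes most like each in pattern were found by Pearson r over the 8 arrays after centring on the line mean, among 8765 genes with a within-line range of at least 0.5. For UCHL1 they were ITPR1, a calcium channel of the endoplasmic reticulum, at 0.961, SLC37A3 at 0.952 and SLC7A5, an amino acid transporter, at 0.937. For ENO2 they were SYNPO, an actin-binding protein, at 0.974, UTP25 at 0.971 and NUDCD3 at 0.964. For SYP they were ADGRB3, an adhesion receptor, at 0.981, the ATPase VCP at 0.973 and the Wnt ligand WNT3 at 0.967, and like SYP these were highest on the PTK7-1 array of H1299. Among the 9 genes, INA had r of 0.518 with UCHL1 and 0.677 with SYP, and ENO2 had 0.01 with UCHL1. With 8 arrays that share 4 hairpins, and the highest of many taken, such values are a description only.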

How the data were processed

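Total RNA from 8 cultures was hybridised to 8 Affymetrix arrays with a biotin label. The authors deposited log2 values, 1 per probe set. Per the submitters' processing notes they used RMA and R 2.14.0. Other settings are not given in the sources used here. GEO's platform annotation gave 1 symbol to 19158 of 32321 probe sets and more than 1 to 1388, and did not list 11775. By gene ID 19128 of the single symbols matched RefSeq's gene table, and the brightest probe set was kept for 637 genes with several, which left 18404 genes. No pair of arrays held identical values.

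Comparisons used limma 3.58.1 (R 4.3.3) over all 8 arrays and all genes, with a mean per group (knockdown and line contrasts) or hairpin plus line (hairpin contrasts), and Benjamini-Hochberg adjustment at 0.05. A ± gives the fit's standard error, or the SD where so marked. The fit was tested on simulated data. The simulated noise was independent between arrays, so deviations shared by arrays of the same hairpin were not covered. The members, lists and tests were chosen with earlier results of these data known, and p-values of the members are read with that in mind. Named genes were PTK7, the 9 members, up to 3 genes per related list with the largest line difference, any list gene past the threshold in a PTK7 or hairpin comparison, and the 3 most alike genes of the 3 members that varied most within a line. Cell type markers, ENO1, REST, CPE, SIN3A, NFASC and L1CAM were named outside this rule, after their values were seen. The titles give the same hairpins in both lines, and arrays of one hairpin deviated together (r between the lines of 0.407 for the PTK7 and 0.230 for the control hairpins), so the hairpin block was fitted as well. Alternatives were quantile normalization, dropping the dimmest 40% of genes, averaging probe sets of a gene, a trended prior, the hairpin block and leaving out each array. Promoter windows are from RefSeq (GRCh38.p14). Plots used matplotlib 3.10.9 (Python 3.11.15).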

Additional observations from a re-analysis of the deposited data

Results flagged for a closer look

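CHGA had both PTK7 arrays below both control arrays in H1299 and both above in H2009. The margins were small: PTK7-1 minus GFP, the closest pair, was -0.016 in H1299 and 0.006 in H2009. The share of all genes separated in opposite directions was not counted. The PTK7 minus control difference of CHGA was -0.12 ± 0.12 in H1299 and 0.06 ± 0.12 in H2009, and the H1299 minus H2009 difference of these was -0.18 ± 0.17. The direct test did not pass (limma adjusted p = 0.943, and 0.831 with the hairpin block). CHGA was dim on all 8 arrays, and with quantile normalization the H2009 difference was -0.01.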

How the results depend on the processing

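In all 6 knockdown and hairpin comparisons, 0 of the 9 genes passed under any alternative, including each array left out. Counts over all genes moved more. Averaged over the lines, 0 genes passed as reported, 3 with a trended prior, 149 with the hairpin as a replicate block, and 0 to 5 with an array left out (5 without PTK7-1 in H1299). In H1299, 1 passed as reported, 0 without the dimmest 40% of genes, 4 with the block, and 0 to 8 with an array left out (8 without PTK7-1 in H1299). For the difference of the knockdown between lines, 0 passed as reported, 1 with a trended prior, 1 with the block, and 0 to 3 with an array left out (3 without PTK7-1 in H1299). Between the PTK7 hairpins 686 passed as reported and 0 to 943 with an array left out: 0 without PTK7-1 in H1299, 92 without PTK7-1 in H2009, 97 without PTK7-2 in H1299, 301 without either GFP array and 381 without either LUC array.

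Members with both PTK7 arrays above both control arrays numbered 1 in H1299 (1 to 5 with an array left out) and 5 in H2009 (5 to 7 with an array left out, 3 with quantile normalization, and 1 of 4 without the dimmest 40% of genes). Separation is easier when an array of that line is left out. The share of all genes was not counted under these settings, so nothing is read from the changed counts. Members with every H1299 array above every H2009 array numbered 6 of 9, 6 with any array left out, 5 with quantile normalization, and 4 of the 4 kept without the dimmest 40% of genes. That filter used the mean over all 8 arrays. INA and NRN1 averaged 3.94 and 3.78 in H2009, under the cut of 5.53, and were kept only through their H1299 values. Nothing is therefore read from the last count. The line difference of INA ran from 6.72 to 6.99 and that of NRN1 from 5.35 to 5.46. NEFH between the PTK7 hairpins ran from 1.02 to 2.04, with adjusted p from 0.0130 to 0.146 in limma, and passed in 8 of 12 alternatives, HDAC1 in 4 of 12 and EHMT2 in 3 of 12. The block changed no call of the 9 genes or PTK7 in the knockdown comparisons, and no block could be fitted between hairpins, since the hairpin is what is compared. The causes of these shifts were not tested. Brightness limits the 5 dim genes, whose differences are compressed.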
